A study of Mus with 8 samples.

Results

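The genes described here are alcohol and aldehyde dehydrogenase genes with Cyp2e1 and Cat, listed together for ethanol and acetaldehyde oxidation in the liver. They are Adh1, Adh4, Adh5, Cyp2e1, Cat, Aldh2, Aldh1b1, Aldh1a1, Aldh1a7 and Aldh3a2. Some of them, such as Adh5 and Aldh3a2, act mainly on other substrates. They were chosen by name at a time when earlier results of these data were known. All 10 were found among the 54532 genes of the count table. RNA came from the livers of mice with colitis, sequenced as 8 libraries; the colitis followed oral DSS (dextran sulfate sodium) at 2.5%, a polysaccharide that damages the lining of the colon and was withdrawn on day 6. Of these, 4 libraries are labelled DSS (libraries 15, 48, 49 and 50), and 4 are labelled as DSS with a high-fat diet and alcohol, called DSSHA in the sample names and the diet-alcohol group here (libraries 35, 45, 65 and 71). All mice therefore received DSS, the effects of diet and of alcohol cannot be told apart because no group had only one of them, and the design text can be read as giving the DSS group a purified high-fat feed, which the sample labels do not mention. The labels give no strain, age or sex, and it is not stated that every library is a separate mouse. The p-values thus reflect only how far these libraries scatter, which may be technical.

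Ethanol is oxidized to acetaldehyde mainly by cytosolic alcohol dehydrogenases, with NAD as the electron acceptor. A second route runs through the microsomal cytochrome P450 CYP2E1, best known for its action at high ethanol levels, and a minor one through peroxisomal catalase, which uses hydrogen peroxide. Acetaldehyde, the reactive and toxic intermediate, is then oxidized to acetate by aldehyde dehydrogenases, chiefly ALDH2 in the mitochondrial matrix. CYP2E1 is abundant in hepatocytes around the central vein, and its protein amount is set in large part after transcription; the present data are of RNA only.

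Library totals lay between 12502300 and 16967839 counts. The mitochondrial genome supplied 65.2% ± 11.4 of counts in the DSS group and 45.2% ± 19.2 in the diet-alcohol group (mean ± SD over 4 libraries each; p = 0.143 in an exact permutation test, two-sided), and nuclear genes had 2722757 to 10947612 counts. Diet-alcohol library 35 stood apart, with 784 genes at 1 to 9 counts where the other 7 libraries had 4319 to 4987. Library 65 had the highest mitochondrial share of its group, at 73.0%. The 10 genes had 125 to 26100 counts in each library, so that counting error alone was at most 8.94% (Aldh1b1 at its lowest) and under 2% for Adh1, Cyp2e1, Cat and Aldh2. All 7 hepatocyte markers found in the table, of 8 listed, had counts in every library. Their summed level was 42478 to 66790 CPM (counts scaled to library size) in the DSS group and 28732 to 36356 CPM in the diet-alcohol group; most of it was albumin (Alb), whose log2 fold change of -1.20 did not pass the test (edgeR adjusted p = 0.115). Of the 7 markers, 6 had negative log2 fold changes, the median of all 7 was -0.38, and 0 passed. Only the fibrinogen gene Fgb was positive, at 1.12 (edgeR adjusted p = 0.094). Its mean was 3096 CPM in the DSS group and 6728 CPM in the diet-alcohol group. The groups did not overlap for Fgb, which was higher in the diet-alcohol group, or for Alb, which was lower there. Over all tested genes 8.77% had no overlap, in either direction. In bulk tissue fewer cells of a type and less RNA per cell cannot be told apart. The part of these marker differences in the values below was not tested.

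None of the 10 genes passed the test for a difference between the groups. By the edgeR quasi-likelihood F test with Benjamini-Hochberg adjustment over 11729 genes, 0 of 10 passed at an adjusted p under 0.05, where 1.26% of all tested genes did. At an unadjusted p under 0.05 there was 1, Aldh1a7, against 11.7% of all tested genes, and DESeq2 and limma-voom also called 0. The median log2 fold change of the 10 was 0.04, beside -0.01 over all tested genes, with 6 positive and 4 negative values running from -0.74 (Aldh3a2) to 0.76 (Aldh1a7). The DSS libraries lay close together for most of these genes, and the diet-alcohol libraries lay further apart, each in its own pattern.

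**Figure D1:**
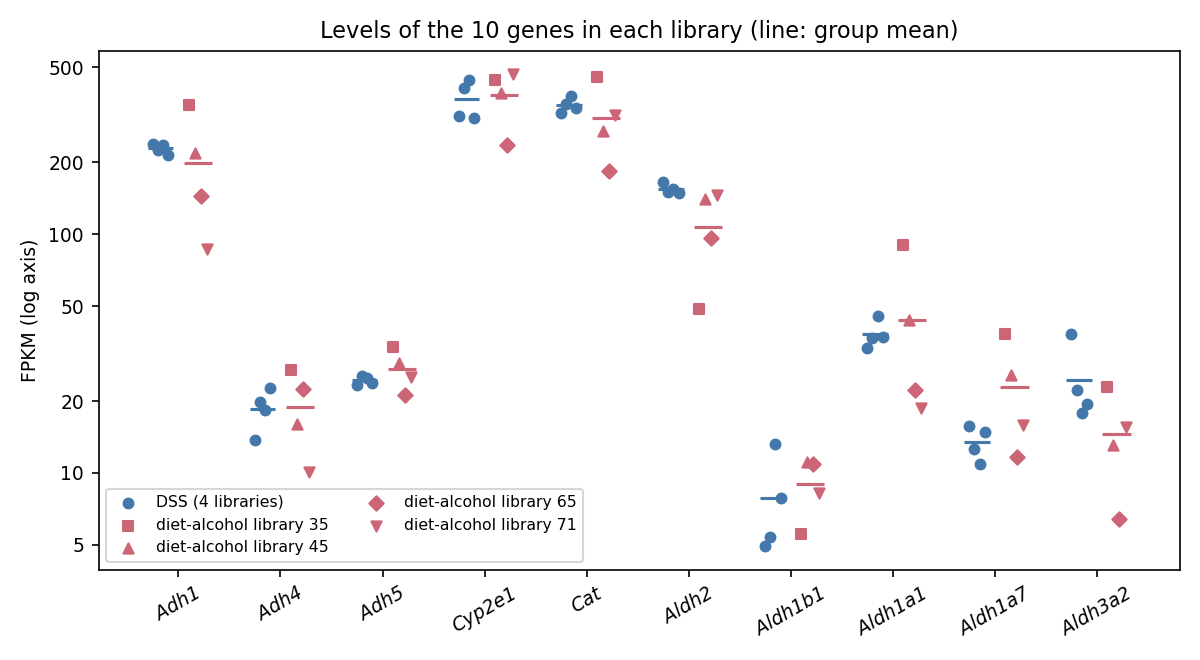
Level of each gene in FPKM (fragments per kilobase of gene length, scaled to a normalized library size, not to total counts, log axis). Circles are the 4 DSS libraries, the other symbols are the 4 diet-alcohol libraries (1 symbol per library), and horizontal lines are group means. Adh1 lay between 213 and 239 in the DSS libraries and between 86.4 and 346 in the diet-alcohol libraries.

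Per length, the RNA of the microsomal and peroxisomal enzymes stood above that of the dehydrogenases. In the DSS group the order of mean FPKM was Cyp2e1 (367 ± 68.1), Cat (347 ± 24.1), Adh1 (228 ± 11.6), Aldh2 (155 ± 7.67), Aldh1a1 (38.2 ± 5.07), Aldh3a2 (24.4 ± 9.44), Adh5 (24.4 ± 0.948), Adh4 (18.6 ± 3.74), Aldh1a7 (13.5 ± 2.16) and Aldh1b1 (7.85 ± 3.78; SD, n = 4). Cyp2e1 and Cat were not separated, each being the higher in 2 of 4 libraries, and neither were Aldh1a1 and Aldh3a2, Aldh3a2 and Adh5, Adh4 and Aldh1a7, or Aldh1a7 and Aldh1b1, whose ranges overlapped. Cat and Adh1, Adh1 and Aldh2, Aldh2 and Aldh1a1, and Adh5 and Adh4 had ranges that did not overlap. The first 5 places were the same in the diet-alcohol group, but there every pair of neighbours had overlapping ranges. Among nuclear protein-coding genes ranked by FPKM within a library, Cyp2e1 was between places 47 and 77 and Cat between 49 and 100, while Aldh1b1 was between 1141 and 2450. The 10 genes together took 0.910, 0.856, 0.856 and 0.836% of nuclear counts in DSS libraries 15, 48, 49 and 50, and 1.03, 0.747, 0.568 and 0.782% in diet-alcohol libraries 35, 45, 65 and 71. That share was thus nearly constant in the DSS group, and in the diet-alcohol group it was highest in library 35 and lowest in library 65.

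Adh1 (ENSMUSG00000074207, chromosome 3, 138260991 to 138290698, GRCm38, plus strand) encodes the class I enzyme that carries most hepatic ethanol oxidation at low concentrations. Its level was 239, 225, 236 and 213 FPKM in DSS libraries 15, 48, 49 and 50, and 346, 219, 145 and 86.4 FPKM in diet-alcohol libraries 35, 45, 65 and 71. The DSS libraries differed by no more than 1.12-fold from lowest to highest, whereas the diet-alcohol libraries differed 4.01-fold, with library 35 above every DSS library and libraries 65 and 71 below all of them. The log2 fold change was -0.19 ± 0.36 (SE; edgeR adjusted p = 0.896), with a 95% interval from 0.505-fold to 1.51-fold. It was -0.61 without library 35 and 0.05 without library 71, neither past the test.

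Adh4 (ENSMUSG00000037797, chromosome 3, 138415466 to 138430892) encodes a class II enzyme with activity toward retinol as well as ethanol. It stood at 13.7, 19.9, 18.3 and 22.6 FPKM in the DSS libraries and at 26.9, 16.1, 22.4 and 10.1 FPKM in diet-alcohol libraries 35, 45, 65 and 71. The groups overlapped, with the highest and the lowest of all 8 values both in the diet-alcohol group. Between the groups the log2 fold change was 0.02 ± 0.30 (edgeR adjusted p = 0.990; 95% interval 0.640-fold to 1.60-fold).

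Adh5 (ENSMUSG00000028138, chromosome 3, 138443093 to 138455499) encodes the class III enzyme, a glutathione-dependent formaldehyde dehydrogenase found in most tissues, with little activity toward ethanol at ordinary concentrations. Its FPKM had the lowest coefficient of variation of the 10 in both groups, 3.88% and 19.6%. The DSS libraries had 23.5, 25.5, 24.9 and 23.8 FPKM, and the diet-alcohol libraries 33.8, 28.9, 21.2 and 25.2 FPKM. Libraries 35 and 45 were above the DSS range, library 71 was within it and library 65 was below it. Its log2 fold change was 0.16 ± 0.21 (edgeR adjusted p = 0.832; 95% interval 0.818-fold to 1.53-fold).

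These 3 genes lie in a single alcohol dehydrogenase cluster on the plus strand of chromosome 3, in the order Adh7, Adh1, Adh6a, Adh6b, the pseudogene Adh6-ps1, Adh4 and Adh5. Adh1 starts 27608 bases past the end of Adh7, and Adh5 starts 12200 bases past the end of Adh4. Transcript abundance differed widely within the cluster: over all 8 libraries Adh1 had 58041 counts and Adh5 17919, while Adh6a had 4 and Adh6b 26. The 3 neighbours did not follow 1 pattern over the libraries: in library 71 Adh1 and Adh4 were below the DSS range and Adh5 was not.

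Cyp2e1 (ENSMUSG00000025479, chromosome 7, 140763739 to 140774987, plus strand), the ethanol-oxidizing P450 and the gene most often followed in alcohol feeding, had similar means in the 2 groups. The DSS libraries had 312, 408, 441 and 305 FPKM, and diet-alcohol libraries 35, 45, 65 and 71 had 441, 388, 236 and 467 FPKM. The lowest value was in library 65 and the highest in library 71, with library 35 level with DSS 49. The group means were 367 ± 68.1 and 383 ± 103 FPKM (SD, n = 4 each), and the log2 fold change was 0.07 ± 0.27 (edgeR adjusted p = 0.957). Its 95% interval ran from 0.695-fold to 1.58-fold, so smaller changes than these could not be told from none.

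Cat (ENSMUSG00000027187, chromosome 2, 103453849 to 103485160, minus strand) encodes catalase, the peroxisomal enzyme that breaks down hydrogen peroxide and can oxidize ethanol with it. It had 321, 350.2, 379 and 339 FPKM in the DSS libraries and 453, 269, 184 and 316 FPKM in the diet-alcohol libraries. In FPKM only library 35 exceeded the DSS range, and libraries 45, 65 and 71 were below it. In CPM library 71 was just inside the range, at 850 against a lowest DSS value of 847. Diet-alcohol over DSS, the log2 fold change was -0.18 ± 0.28 (edgeR adjusted p = 0.871), or -0.44 without library 35.

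Aldh2 (ENSMUSG00000029455, chromosome 5, 121566027 to 121593824, minus strand), the main acetaldehyde dehydrogenase of mitochondria, was the only one of the 10 whose groups did not overlap. The DSS libraries had 166, 151, 155 and 149 FPKM, and diet-alcohol libraries 35, 45, 65 and 71 had 48.6, 140.1, 96.6 and 145 FPKM. Libraries 45 and 71 were just under the lowest DSS library, library 65 was lower and library 35 lower still. The mean CPM was 812 ± 33.4 in the DSS group and 563 ± 237 in the diet-alcohol group (SD, n = 4 each), and the log2 fold change of -0.53 ± 0.32 did not pass the test (edgeR adjusted p = 0.595; 95% interval 0.429-fold to 1.12-fold). It was -0.28 without library 35. Groups without overlap were found for 8.77% of all tested genes, 4.63% with the diet-alcohol group lower. When counts were scaled to nuclear counts alone (CPM of nuclear counts) the groups of Aldh2 did overlap, the highest diet-alcohol value being 1845 and the lowest DSS value 1786.

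Aldh1b1 (ENSMUSG00000035561, chromosome 4, 45799022 to 45804604), a second mitochondrial aldehyde dehydrogenase with activity toward acetaldehyde, was the least abundant of the 10. It had 4.95, 5.42, 13.2 and 7.85 FPKM in the DSS libraries and 5.53, 11.2, 10.9 and 8.24 FPKM in the diet-alcohol libraries. All 4 diet-alcohol values lay within the DSS range, and this was the only gene of the 10 with a larger spread in the DSS group. With a log2 fold change of 0.19 ± 0.34 it did not pass (edgeR adjusted p = 0.891), and the value was 0.56 without DSS 49.

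Aldh1a1 (ENSMUSG00000053279, chromosome 19, 20492715 to 20643462, plus strand) encodes a cytosolic enzyme that oxidizes retinal to retinoic acid and also accepts acetaldehyde. It had 33.5, 36.8, 45.4 and 37.0 FPKM in the DSS libraries and 90.0, 43.8, 22.3 and 18.6 FPKM in diet-alcohol libraries 35, 45, 65 and 71. Library 35 was above the DSS range, library 45 was within it, and libraries 65 and 71 were below it, the same order over the diet-alcohol libraries as for Adh1. The log2 fold change was 0.20 ± 0.43 (edgeR adjusted p = 0.914), and its sign turned without library 35 (-0.44, edgeR adjusted p = 0.541) and in fits of log values such as limma-voom (-0.09).

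Aldh1a7 (ENSMUSG00000024747, chromosome 19, 20692953 to 20727562, minus strand) is a close relative of Aldh1a1 that starts 49490 bases past its end and runs on the other strand. The DSS libraries had 15.7, 12.6, 10.9 and 14.9 FPKM, and diet-alcohol libraries 35, 45, 65 and 71 had 38.0, 25.8, 11.6 and 15.8 FPKM. Libraries 35 and 45 were clearly above the DSS range, library 71 was at its upper edge and library 65 was inside it. The log2 fold change of 0.76 ± 0.34 was the highest of the 10 and did not pass the test (edgeR adjusted p = 0.411; 95% interval 1.01-fold to 2.83-fold). It was 0.40 without library 35 and 0.97 without library 65. Aldh1a7 and Aldh1a1 are similar in sequence, and reads shared by both could have been split between them in counting.

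Aldh3a2 (ENSMUSG00000010025, chromosome 11, 61223417 to 61267464, minus strand) encodes the fatty aldehyde dehydrogenase of the endoplasmic reticulum and peroxisomes, which acts on long-chain aldehydes. It had 38.3, 22.2, 17.8 and 19.4 FPKM in the DSS libraries and 22.9, 13.2, 6.40 and 15.6 FPKM in the diet-alcohol libraries. Libraries 45, 65 and 71 were below every DSS library, and library 35 was within the DSS range. The log2 fold change of -0.74 ± 0.37 was the lowest of the 10 and did not pass the test (edgeR adjusted p = 0.488; 95% interval 0.339-fold to 1.05-fold). It was -0.46 without DSS 15 and -1.05 without library 35, and -1.44 with the mitochondrial share as a covariate (edgeR adjusted p = 0.204).

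**Figure D2:**
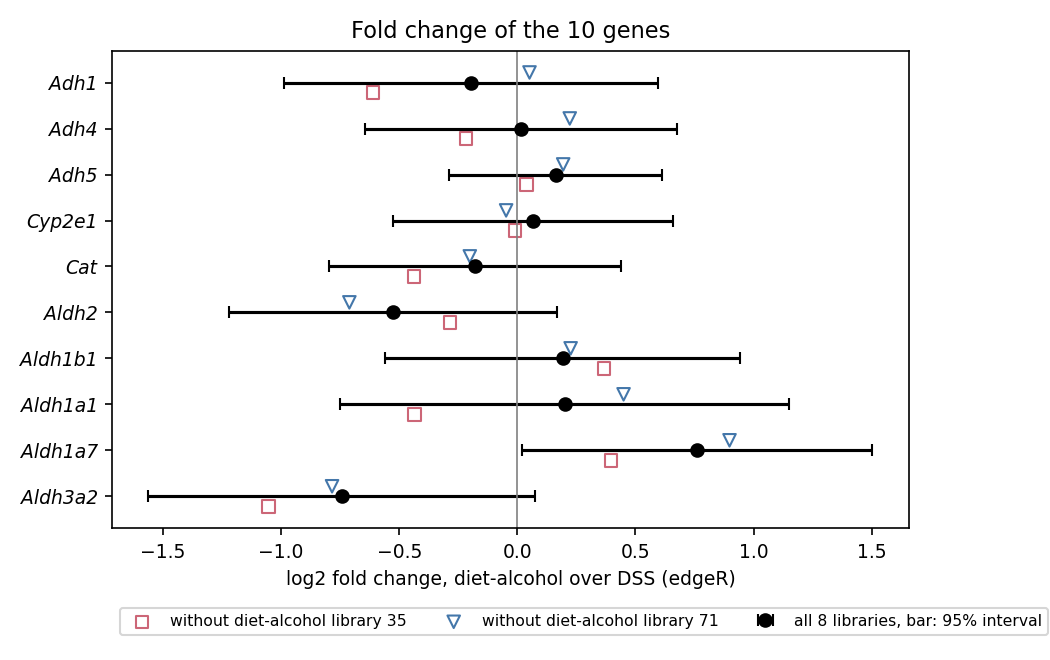
log2 fold change of each gene, diet-alcohol group over DSS group (edgeR), with its 95% interval (bars) over all 8 libraries; open squares and triangles give the value without diet-alcohol library 35 or 71. Only the interval of Aldh1a7 lies on one side of 0, before adjustment over all genes, and the squares of Aldh1a1 and Adh1 lie well to the left of their circles.

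The authors' deposited table gives log2 fold changes close to those above, and its lowest adjusted p-value among the 10 genes is that of Aldh1a7. By its unadjusted p-values Aldh3a2 (0.047) is under 0.05 as well as Aldh1a7 (0.036), whereas edgeR gave an unadjusted p of 0.070 for Aldh3a2. Its log2 fold change for Aldh1a7 is 0.76 with an adjusted p-value of 0.374, and for Aldh3a2 -0.75 with 0.428. For Cyp2e1 the authors' deposited table gives 0.06 with an adjusted p-value of 0.974, and for Aldh2 -0.53 with 0.601.

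The diet-alcohol libraries differed in which of the 10 genes lay outside the range of the DSS libraries. Library 35 was above the DSS range of FPKM for 7 of the 10 genes (Adh1, Adh4, Adh5, Aldh1a1, Aldh1a7, Cat and Cyp2e1) and below it for 1, Aldh2. Library 65 was below the range for 7 (Adh1, Adh5, Aldh1a1, Aldh2, Aldh3a2, Cat and Cyp2e1) and above it for 0. Library 71 was below for 6, Aldh2 among them, and above for Cyp2e1 and Aldh1a7, and library 45 was below for 3 and above for 2. For Cyp2e1 library 35 was only just above, at 441.1 FPKM against 440.6 in DSS 49, and in CPM Cat of library 71 was within the range. The matching share of all tested genes was not computed, so these counts cannot be read as particular to the 10 genes.

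The standard deviation of log2 CPM was larger in the diet-alcohol group for 9 of the 10 genes, with a median of 0.67 against 0.21 in the DSS group. For Adh1 it was 0.86 against 0.06, and for Aldh2 0.73 against 0.06. The wider spread was a property of much of the transcriptome: it was larger in the diet-alcohol group for 73.0% of all tested genes, and for 81.8% of the 983 with a mean of at least 50 CPM, whose medians were 0.44 and 0.23. Without library 35 the spread was still larger for 9 of the 10 (median 0.54), and for 53.0% of all tested genes and 72.5% of those of at least 50 CPM.

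**Figure D3:**
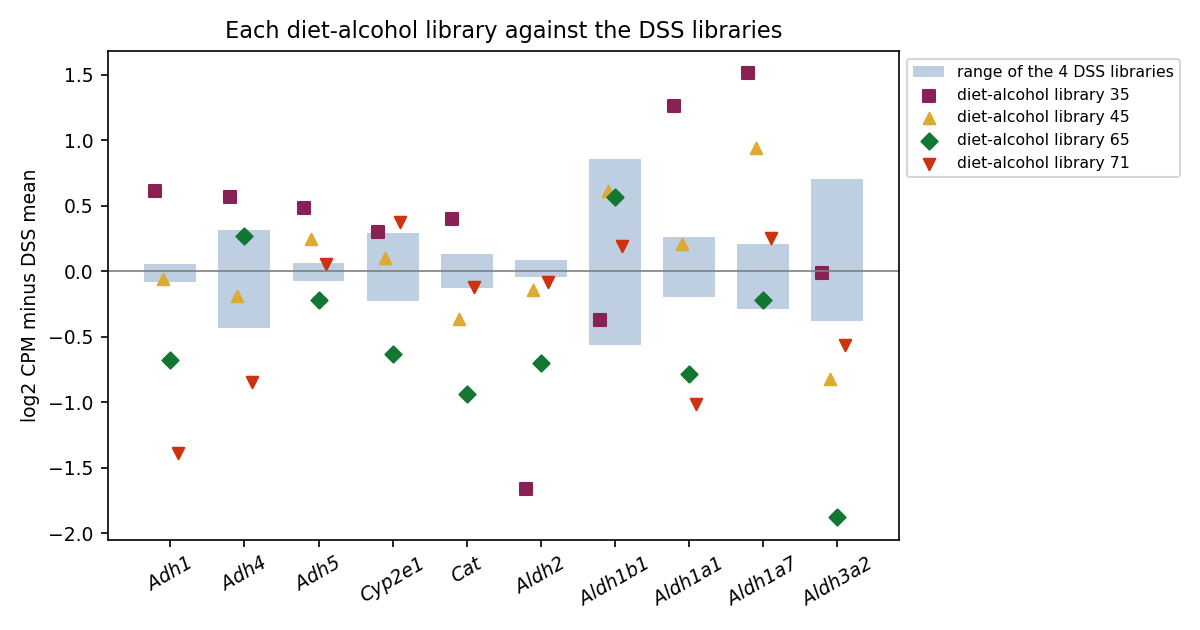
log2 CPM of each diet-alcohol library minus the DSS mean, per gene (symbols), over the range of the 4 DSS libraries (bars). Library 35 is above the bars for Adh1, Aldh1a1 and Aldh1a7 and far below for Aldh2, while library 65 is below them for most genes.

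The ratio of Aldh2 to Adh1 in FPKM sets a transcript of the second step of ethanol oxidation against one of the first within each library, and does not depend on library scaling. In DSS libraries 15, 48, 49 and 50 the ratio was 0.696, 0.669, 0.654 and 0.699. Diet-alcohol libraries 45 and 65 had 0.640 and 0.668, close to the DSS values although library 65 had less of both transcripts. Library 35 had 0.140, with Adh1 at its highest and Aldh2 at its lowest level of all 8 libraries, and library 71 had 1.68, where Adh1 was low and Aldh2 was not.

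The ratio of Cyp2e1 to Adh1, which sets a transcript of the microsomal route against one of the cytosolic route, was 1.31, 1.82, 1.86 and 1.43 in the DSS libraries and 1.27, 1.77, 1.63 and 5.40 in diet-alcohol libraries 35, 45, 65 and 71. Library 71 was far above the DSS range, library 35 just below it, and libraries 45 and 65 within it. The ratio of Aldh1a7 to Aldh1a1 was 0.468, 0.344, 0.241 and 0.402 in the DSS libraries and 0.422, 0.589, 0.520 and 0.850 in the diet-alcohol libraries, so that libraries 45, 65 and 71 were above the DSS range and library 35 was within it. These ratios were formed after the values had been seen and are given as a description, with no test.

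**Figure D4:**
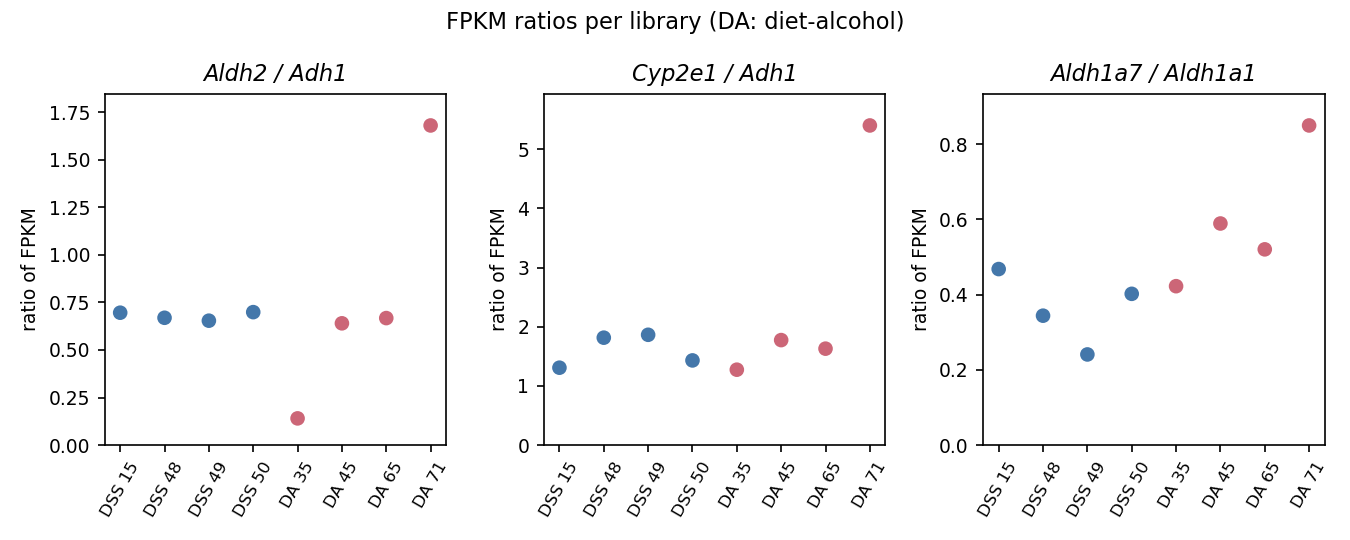
Ratio of FPKM within each library for Aldh2 over Adh1, Cyp2e1 over Adh1 and Aldh1a7 over Aldh1a1 (linear axes from 0; DA, diet-alcohol). Aldh2 over Adh1 lies between 0.640 and 0.699 in 6 libraries, at 0.140 in library 35 and at 1.68 in library 71.

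The genes whose log2 CPM followed a member most closely were looked for among 4347 nuclear genes with a mean of at least 10 CPM, by Pearson correlation over the 8 libraries, as a description. For Adh1 they were Akr1c20, an aldo-keto reductase gene (r = 0.953), Acat1, a mitochondrial thiolase gene of ketone metabolism (0.944), and Crot, which encodes peroxisomal carnitine octanoyltransferase (0.941). The r of these 3 was 0.933, 0.922 and 0.916 without library 35, at places 11, 18 and 22. For Cyp2e1 they were Zc3h15 (r = 0.953), the sorbitol dehydrogenase gene Sord (0.942) and Sptssa (0.942), which remained within the first 8 places without library 35. For Aldh2 they were Hmgn5 (r = 0.985), the splicing factor gene U2af1 (0.983) and Cyth1 (0.980), none of them known as an ethanol enzyme, and without library 35 their r was 0.913, 0.894 and 0.870, at places 88, 123 and 176. In library 35 Hmgn5 had 1.29 CPM, where the remaining 7 libraries had 5.41 to 17.8, and Cyth1 had 3.08 against 9.28 to 18.2, with their lowest values in the library where Aldh2 also had its lowest.

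The wider family was measured in the same fit. Of 20 other Adh and Aldh genes, 12 had enough counts to be tested and 0 passed (edgeR, and 0 by DESeq2 and limma-voom). The median log2 fold change was 0.11, and 1 of the 12 had an unadjusted p under 0.05 (edgeR), against 11.7% of all tested genes. The smallest p-value was that of Adhfe1, a mitochondrial hydroxyacid-oxoacid transhydrogenase gene, at 0.60 (edgeR adjusted p = 0.333), followed by Aldh18a1, which acts in proline synthesis, at 1.32 (0.549), Aldh6a1, of valine breakdown, at -0.27 (0.654), and Adh7, the class IV enzyme mainly of the upper digestive tract, at -0.39 (0.670). Aldh18a1 had means of only 0.920 CPM in the DSS group and 2.21 CPM in the diet-alcohol group. Aldh3a1 had 0 counts in any library, and Aldh1a2 had 4 in all.

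Genes that take up the products of ethanol oxidation, acetate and NADH, did not pass either: 0 of 16 tested of 18 listed, median -0.12. At an unadjusted p under 0.05 (edgeR) there were 3, against 11.7% of all tested genes. Gpd1, the cytosolic glycerol-3-phosphate dehydrogenase that reoxidizes NADH, stood at -0.87 on the log2 scale (edgeR adjusted p = 0.133), and Got1, the cytosolic aspartate aminotransferase of the malate-aspartate shuttle, -1.43 (0.173). Both had no overlap between the groups, with the diet-alcohol group lower, as had 4.63% of all tested genes. Ldha, lactate dehydrogenase A, stood at 0.91 (0.238) and Gpd2, the mitochondrial partner of Gpd1, at -0.65 (0.527).

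Among microsomal electron carriers and other P450s with some ethanol-oxidizing activity, 2 of 9 fell, 0 rose and 7 did not pass (median -0.70), against 0.674% of all tested genes called lower. Of the 9 values, 4 were positive and 5 negative, and 6 had an unadjusted p under 0.05 (edgeR), against 11.7% of all tested genes. The groups did not overlap for 5, 4 of them lower, against 8.77% of all tested genes. The 1 that was higher was Cyp3a13, at 0.74 (edgeR adjusted p = 0.168). Cyp3a11, a main drug-oxidizing P450 of mouse liver, had 90.1, 354, 321 and 470 CPM in DSS libraries 15, 48, 49 and 50 and 67.4, 36.3, 49.5 and 44.2 CPM in diet-alcohol libraries 35, 45, 65 and 71. It fell by 2.64 on the log2 scale (SE 0.44; edgeR adjusted p = 0.013), and the call was lost without DSS 48 (0.052) or library 45 (0.064), without libraries 35 and 65 together (0.065), with limma on log2(FPKM + 0.1) (0.051), and with the mitochondrial share as a covariate (0.204). Cyp3a25 fell by 1.47 (edgeR adjusted p = 0.035), a call lost when any of libraries 48, 49, 50, 45, 65 and 71 was left out (adjusted p up to 0.154), with limma-voom (0.069), with limma on log2(FPKM + 1) (0.063) and log2(FPKM + 0.1) (0.107), and with that covariate (0.250). Cyp1a2 stood at -1.73 (0.092) and Cyb5r3, a cytochrome b5 reductase gene, at -0.73 (0.107); Cyp3a genes are similar in sequence, so their single counts are uncertain. Cyp2e1, with a log2 fold change of 0.07, was thus measured in the same libraries as Cyp3a11. The difference between these 2 changes was not tested.

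Around catalase, 0 of 17 tested genes of peroxisomal import and peroxide metabolism passed (median 0.02). Of these, 4 had an unadjusted p under 0.05 (edgeR), against 11.7% of all tested genes. Uox, the peroxisomal urate oxidase, stood at -0.78 (edgeR adjusted p = 0.223), Hao1, a hydrogen peroxide-forming oxidase, at -0.88 (0.268), Pxmp2 at 0.79 (0.302) and Sod2, mitochondrial superoxide dismutase, at 0.55 (0.389). Among 16 transcription factor genes linked to these enzymes 0 passed (median -0.05), and 2 had an unadjusted p under 0.05 (edgeR), beside the same 11.7%. Cebpa, a hepatocyte factor, was at -0.92 (edgeR adjusted p = 0.171), the pregnane X receptor gene Nr1i2 at -0.61 (0.297), the bile acid receptor gene Nr1h4 at 0.50 (0.434) and the constitutive androstane receptor gene Nr1i3 at 0.69 (0.497).

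Cyp2e1 and Aldh1a1 are richer around the central vein and Aldh1b1 was listed with genes of the portal side, so zonated genes were set beside them. Of 15 pericentral genes, which include Cyp2e1, Aldh1a1 and Cyp1a2, 0 passed. An unadjusted p under 0.05 (edgeR) was found for 7 of them, in both directions, against 11.7% of all tested genes. Cyp1a2 was at -1.73 and Rgn at -0.88 (edgeR adjusted p = 0.154), but Slc1a2 at 0.91 (0.184) and Rhbg at 2.08 (0.191). Rhbg had means of only 0.522 CPM in the DSS group and 2.24 CPM in the diet-alcohol group. The median of the 15 was -0.10. The groups did not overlap for 5 of the 15, 3 higher and 2 lower, against 8.77% of all tested genes in either direction. Of 14 periportal genes 1 fell, 0 rose and 13 did not pass, against 0.674% of all tested genes called lower. Their median was -0.52, with 11 negative values, where 5925 of all 11729 tested genes were negative. An unadjusted p under 0.05 (edgeR) was found for 5, against 11.7% of all tested genes. The groups did not overlap for 5, all lower, against 4.63% of all tested genes. Cyp2f2, a P450 of periportal hepatocytes, fell by 2.44 (edgeR adjusted p = 0.0096), and its call was lost with the mitochondrial share as a covariate (0.076). Otc, of the urea cycle, was at -0.91 (0.088), Gls2 at -1.32 (0.150) and Sds at -1.40 (0.153).

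**Figure D5:**
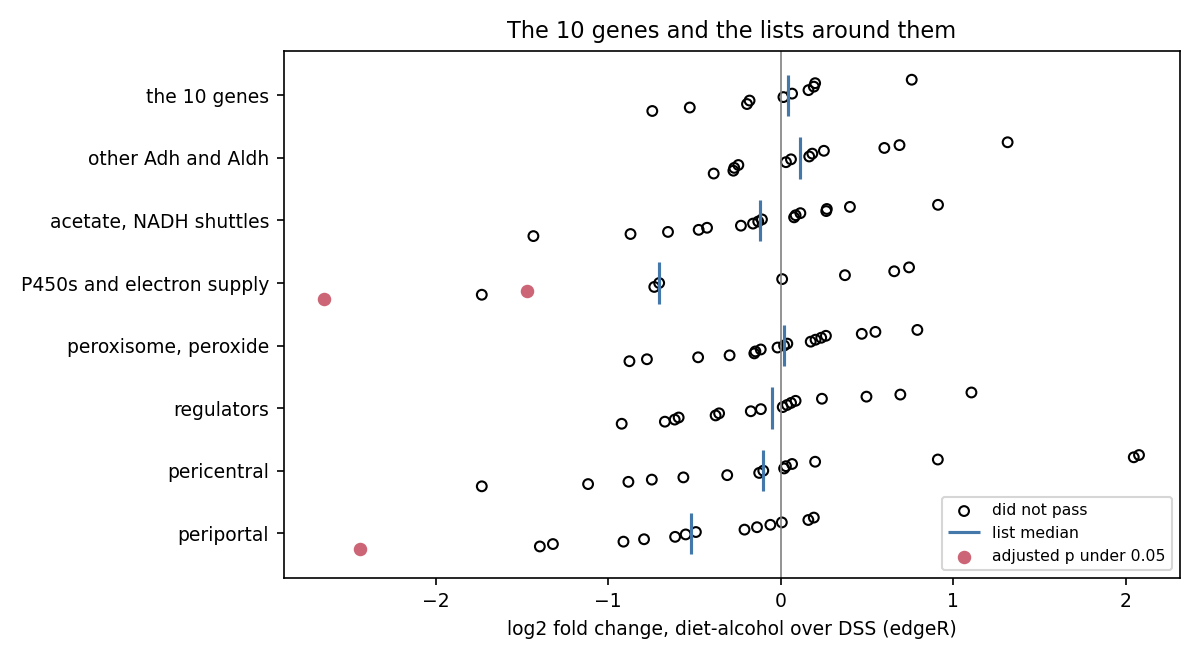
log2 fold change (diet-alcohol over DSS, edgeR) of every tested gene of each list; filled points passed at an adjusted p under 0.05 and vertical lines are list medians. None of the 10 genes passed, and the 3 filled points are Cyp3a11 and Cyp3a25 among P450s and Cyp2f2 among periportal genes.

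Markers of other liver cells were measured alongside. Of 8 neutrophil markers, 3 had enough counts to be tested and all 3 rose (S100a8, S100a9 and Retnlg; edgeR adjusted p up to 0.024; 0.588% of all tested genes were called higher), and the list summed to 2.88 to 12.2 CPM in the DSS group and 27.3 to 56.2 CPM in the diet-alcohol group. Retnlg had means of only 0.202 CPM in the DSS group and 3.94 CPM in the diet-alcohol group. Ly6g, a defining marker, was at 0 in 4 libraries. Library 35, with the highest sum, had 0 counts for 5 of the 8 markers (Camp, Elane, Ly6g, Mpo and Ngp), as had DSS 50. Leaving out DSS 48, 49 or 50 ended the calls of S100a8 and S100a9 (edgeR adjusted p up to 0.107), leaving out diet-alcohol 45 or 65 that of S100a8 (up to 0.067), and limma-voom did not call Retnlg (0.335) or S100a8 (0.051). With the mitochondrial share as a covariate S100a9 (0.052) and S100a8 (edgeR adjusted p = 0.091) lost their calls, and S100a8 also without libraries 35 and 65 together (0.078). Kupffer cell and macrophage markers summed to 173 to 278 and 215 to 449 CPM, with 0 of 7 past the test. Of sinusoidal endothelial, stellate, cholangiocyte, lymphocyte and erythroid markers 0 of 6, 6, 4, 1 and 4 tested genes passed (edgeR). Erythroid markers summed to 157 to 2177 CPM in the DSS group, highest in library 15, and to 355 to 771 CPM in the diet-alcohol group. The 10 genes came to 3392 to 3890 CPM in the DSS group and 2166 to 4166 CPM in the diet-alcohol group, and the part of these cell types in the values above was not tested.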

How the data were processed

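Liver RNA libraries (mRNA sequencing, RNeasy extraction, per the labels' protocols) were compared as 4 DSS against 4 diet-alcohol samples. For every gene the deposited table holds the raw count in each library, the authors' FPKM, and the authors' own group means (a normalized signal), log2 fold change, p-value and adjusted p-value; builds GRCm38 and mm10 are named per the submitters' processing notes. Which aligner and counter were used, and with which strand setting, is not given in the sources used here. Antisense genes that overlap Adh1 and Aldh1a1 had 8 and 12 counts in all.

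After filterByExpr, 11729 genes were scaled by TMM and put to the robust quasi-likelihood F test of edgeR 4.0.16 (in R 4.3.3), with a threshold of 0.05 on the Benjamini-Hochberg adjusted p. CPM are TMM-scaled, and log2 CPM carry a prior count of 2. The deposited FPKM do not follow total counts either. Adh1 had 8625 counts and 239 FPKM in DSS 15, and 3302 counts and 213 FPKM in DSS 50. The total counts of these libraries were 13967873 and 13025068. Standard errors are the absolute log2 fold change over the root of F. Alternatives used DESeq2 1.42.0 and limma 3.58.1. In simulated data for this comparison (11375 genes), 8.0% of 100 genes changed 2-fold were recovered, 51.0% of 49 changed 4-fold and 92.0% of 50 changed 8-fold, with 8 false calls among 87. Changes of 2-fold would mostly be missed.

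Members and lists were chosen with earlier results of these data known. Named genes are the 10 members, up to 4 genes per list with the smallest p, and the 3 genes most like Adh1, Aldh2 and Cyp2e1. The neutrophil markers, the cluster genes and Cyp3a13 were named after their values were seen. Intervals on counts cover counting error only.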

Additional observations from a re-analysis of the deposited data

How the results depend on the processing

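None of the 10 genes, and none of the other Adh and Aldh genes, was called under any of the 21 alternatives run (other normalizations, filters, tools, FPKM, mitochondrial genes left out or as a covariate, each library left out, and libraries 35 and 65 left out together, the last chosen after the data were seen). The lowest adjusted p over all of them was 0.095 (Aldh3a2, limma-voom with sample weights). Adh5, Aldh1a7, Aldh1b1, Aldh2, Aldh3a2 and Cat kept their sign in all 21. Adh4 changed sign in 10, to -0.050 with limma-voom, -0.32 with sample weights, -0.0028 with no filter, -0.045 and -0.051 with limma on log2(FPKM + 1) and log2(FPKM + 0.1), and -0.50 without libraries 35 and 65; leaving out 1 library gave -0.22 to 0.22. Aldh1a1 changed sign in 7, to -0.087, -0.28, -0.074 and -0.082 in the same 4 limma fits, -0.0018 with the mitochondrial covariate and -0.29 without libraries 35 and 65; leaving out 1 library gave -0.44 to 0.45. Cyp2e1 changed sign in 6, to -0.049 with sample weights and -0.34 with the covariate, and ran from -0.048 to 0.24 with 1 library left out. Adh1 ran from -0.61 to 0.051 with 1 library left out.

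Over all genes, 148 passed, but 440 with DESeq2, 682 with sample weights, 320 with no filter, 55 with the covariate, 360 without libraries 35 and 65, and 58 to 308 with 1 library left out (308 without library 35). Of the surrounding pathway lists 3 genes passed, but 11, 14, 6, 0 and 7 in those fits, 5 and 1 with limma on log2(FPKM + 1) and log2(FPKM + 0.1), and 1 to 5 with 1 library left out. The mitochondrial share differed by -20.0 percentage points (diet-alcohol minus DSS), and by -29.3 to -15.0 with 1 library left out, with an exact permutation p of 0.0286 without library 65, the smallest that 7 libraries allow. FPKM-like levels scaled to nuclear counts alone were on another scale, and kept the order of the 10 genes in both groups. No paired analysis was possible because the groups share no replicate number.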

Other observations

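The pseudogene Adh6-ps1, which lies between Adh6b and Adh4, had 2388 counts over the 8 libraries, more than the protein-coding Adh7 with 1125. Its level was 11.6, 18.4, 25.9 and 25.6 CPM in DSS libraries 15, 48, 49 and 50, and 28.0, 25.5, 11.5 and 13.0 CPM in diet-alcohol libraries 35, 45, 65 and 71. Over the diet-alcohol libraries its values were high in 35 and 45 and low in 65 and 71, as for Adh1 and Aldh1a1. Reads shared with other Adh genes could have been counted here, which was not tested. It was chosen after its values were seen.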
